A study of Homo sapiens with 4 samples.

Results

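The cancer-testis antigen families MAGEA, MAGEB, MAGEC, PAGE, GAGE, XAGE, SSX, CTAG and CT45A were examined in RNA-seq libraries labelled Huh7, an established human hepatocellular carcinoma cell line. Members were the protein-coding genes of GENCODE release 29 whose names begin with these 9 family stems, which gave 71 of the 58735 genes listed. The families were chosen by the measured difference of PAGE1 between the groups, lower with the knockdown, so differences of members are a description, and the counts of calls given for them below stand beside those over all genes and support nothing. In 2 libraries NME7 had been knocked down by a short hairpin RNA (shNME7), and 2 came from cells that carried a control hairpin (shCtrl); the labels give neither the vector nor the time after delivery, nor whether the replicates were separate cultures.

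Cancer-testis antigens are proteins made mainly in the male germ line. In most other tissues their genes are kept silent, in large part by DNA methylation of the promoter, and many are switched on in tumours, where T cells can recognise their peptides. Most of the families lie on the X chromosome as clusters of near-identical copies. The MAGE proteins bind RING-type ubiquitin ligases and change what they ubiquitinate, GAGE, PAGE and XAGE genes encode small related proteins of poorly known function, and SSX proteins are transcriptional repressors.

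Of the 71 members, 70 lie on the X chromosome. The remaining gene, SSX2IP on chromosome 1, matches the name stem but encodes a centrosome and cell junction protein that interacts with SSX2 and is not itself an antigen, so it is kept apart below. The libraries held 14877906 and 16991397 fragments in shNME7 1 and 2, and 15865321 and 16050268 in shCtrl 1 and 2, as recovered from the deposited FPKM values, which scale fragments to exon length and library depth. NME7, the targeted gene, stood at 0.835 and 0.626 FPKM in shNME7 1 and 2, against 3.64 and 3.93 FPKM in shCtrl 1 and 2. The hepatocyte markers went against the label. Of 10 such genes, APOA1, APOB, FGB and AMBP had 0 fragments in all 4 libraries, ALB and AFP had 1 fragment in 1 library each, and the highest value was 0.0848 FPKM, for HNF4A in shCtrl 2. Of 5 fibroblast markers, COL3A1, COL1A1 and PDGFRB reached a mean of 1 FPKM, of which COL3A1 stood at 75.1 and 76.6 FPKM in shNME7 and 75.8 and 66.9 FPKM in shCtrl and COL1A1 at 8.44 and 9.05 FPKM in shNME7 and 10.8 and 9.21 FPKM in shCtrl, while COL1A2 had at most 0.0113 FPKM. Of 5 leukocyte and blood markers 4 were at 0 throughout and CD79A had at most 3 fragments, and of 4 endothelial markers only CDH5 reached a mean of 1 FPKM, at 1.88 and 2.67 FPKM in shNME7 and 1.70 and 1.31 FPKM in shCtrl. Their part in the results was not tested. In bulk libraries such as these, fewer cells of a kind and less RNA per cell cannot be told apart. Of 12 male germ cell markers, 6 were at 0 in every library, PRM1, PRM2 and TNP1 among them, and only CLGN reached a mean of 1 FPKM. CLGN, a chaperone of the testis, stood at 1.92 and 1.79 FPKM in shNME7 and 2.83 and 2.91 FPKM in shCtrl, a log2 difference of -0.44 (SE 0.15) with no overlap, and its part in the results was not tested.

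The sequences shown first are those that separate, or fail to separate, the antigens with the highest levels. Over a 60-base stretch of the coding sequence (bases 573 to 632 from the start codon), the near copies MAGEA3, MAGEA6, MAGEA12 and MAGEA2 read as follows on the coding strand, with capitals at the 7 columns where the 4 genes are not all alike.
MAGEA3: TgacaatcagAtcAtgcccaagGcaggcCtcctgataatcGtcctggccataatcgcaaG
MAGEA6: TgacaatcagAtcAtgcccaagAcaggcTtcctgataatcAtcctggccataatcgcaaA
MAGEA12: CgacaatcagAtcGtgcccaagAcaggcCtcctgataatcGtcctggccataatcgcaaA
MAGEA2: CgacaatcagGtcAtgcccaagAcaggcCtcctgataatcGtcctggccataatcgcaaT
On GRCh38 these stretches lie in exons at chrX:152701405-152701464 (plus strand) for MAGEA3, chrX:152767019-152767078 (minus) for MAGEA6, chrX:152736734-152736793 (plus) for MAGEA12 and chrX:152750732-152750791 (minus) for MAGEA2. The window was taken where MAGEA3 and MAGEA6 differ most, and it holds 4 differences between them. Over the whole coding sequence of 942 bases without the stop codon, MAGEA3 and MAGEA6 differ at 18 bases (98.1% identical), with an identical run of 308 bases. MAGEA12 differs from MAGEA3 at 74 bases (92.1% identical), and MAGEA2 and MAGEA2B do not differ at any coding base.

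The promoter windows, from 250 bases before to 50 bases after the transcription start in RefSeq (GRCh38.p14), are shown for PAGE1, the member that led to the choice of the families, and for the 3 members with the highest levels. Capitals mark CG dinucleotides, the sites at which promoters of these genes are methylated.
PAGE1: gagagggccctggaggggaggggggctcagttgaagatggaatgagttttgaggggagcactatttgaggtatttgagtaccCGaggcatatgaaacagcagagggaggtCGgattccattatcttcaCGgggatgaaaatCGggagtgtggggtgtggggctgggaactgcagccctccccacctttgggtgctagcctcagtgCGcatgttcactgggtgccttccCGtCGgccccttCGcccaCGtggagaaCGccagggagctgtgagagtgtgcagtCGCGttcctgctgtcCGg
MAGEB2: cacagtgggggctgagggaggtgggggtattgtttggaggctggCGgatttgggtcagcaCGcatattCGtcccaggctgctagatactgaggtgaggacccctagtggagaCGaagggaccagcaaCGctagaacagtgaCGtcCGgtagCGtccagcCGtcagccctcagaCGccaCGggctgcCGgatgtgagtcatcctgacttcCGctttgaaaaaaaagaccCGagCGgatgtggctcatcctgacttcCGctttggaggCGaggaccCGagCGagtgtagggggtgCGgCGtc
MAGEA3: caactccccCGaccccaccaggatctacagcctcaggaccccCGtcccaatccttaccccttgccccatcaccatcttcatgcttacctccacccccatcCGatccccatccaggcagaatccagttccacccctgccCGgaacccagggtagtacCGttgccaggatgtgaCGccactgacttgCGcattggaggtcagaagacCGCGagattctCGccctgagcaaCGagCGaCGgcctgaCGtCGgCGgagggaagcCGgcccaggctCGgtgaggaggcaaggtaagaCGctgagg
These windows lie at chrX:49695935-49696234 (minus strand), chrX:30215313-30215612 (plus) and chrX:152698544-152698843 (plus). The window of MAGEA6, at chrX:152769640-152769939 on the minus strand, is the same as that of MAGEA3 at all 300 bases. The CG count was 13 for PAGE1, 21 for MAGEB2 and 19 for MAGEA3 and MAGEA6, against a median of 14 over all 35116 windows (quartiles 4 and 28). Windows were matched for 56 of the 71 members, by symbol and within 10 kb of the gene. Those with none were CT45A2, CT45A3, CT45A5, CT45A6, CT45A8, CT45A9, CTAG1A, CTAG1B, CTAG2, GAGE12B, GAGE2E, MAGEA1, MAGEA10, MAGEB17 and SSX3. Taking the window with the most CG for each gene, the 6 tested antigens with a window (the 4 named here, MAGEA11 and MAGEA12) had 13 to 21 CG (median 19), and the 49 other antigens with a window had 2 to 18 (median 12). The ranges overlap, and MAGEB1 was not alone above PAGE1 and MAGEA12 (15). MAGEB1 and CT45A10 had 18, and MAGEA2, MAGEA2B, XAGE1A and XAGE1B had 17. Copies are not independent here: MAGEA3 and MAGEA6 share a window, and the 12 GAGE windows hold 5 distinct sequences. A link between CG count and level was not tested. The letters CGGAA, a form of the ETS-factor core that overlaps a CG, were counted on both strands (TTCCG on the other). They occurred 2 times in the MAGEB2 window, 1 time in those of MAGEA3 and MAGEA6 and 0 times in that of PAGE1. They were found in 35.6% of the 73 member windows and in 34.9% of all windows.

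Few of the antigen genes were on. Of the 70 antigens, 39 had 0 fragments in every library, 31 had at least 1 fragment in some library, and 9 reached a mean of 1 FPKM over the 4 libraries, the level from which genes were tested. 95.1% of the 29805 antigen fragments of the 4 libraries came from MAGEB2, MAGEA3, MAGEA6 and MAGEA12. By mean FPKM over the 4 libraries, the order was MAGEB2 (131), MAGEA6 (48.8), MAGEA3 (45.3), MAGEA12 (30.4), PAGE1 (7.76), CTAG2 (5.46), MAGEA1 (1.29), MAGEB17 (1.27) and MAGEA11 (1.26). The ranges over libraries of MAGEA6 and MAGEA3 overlapped, as did those of MAGEA1, MAGEB17 and MAGEA11. The order within these sets is not settled by the spread. The ranges of PAGE1 and CTAG2 also overlapped, but PAGE1 was above CTAG2 in every library. MAGEB2 ranked above 98.2% of all 12866 tested genes and MAGEA12 above 87.9%, while MAGEA11 ranked above 5.25%. The member just below the level for testing was XAGE2, at 0.853 FPKM.

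**Figure D1:**
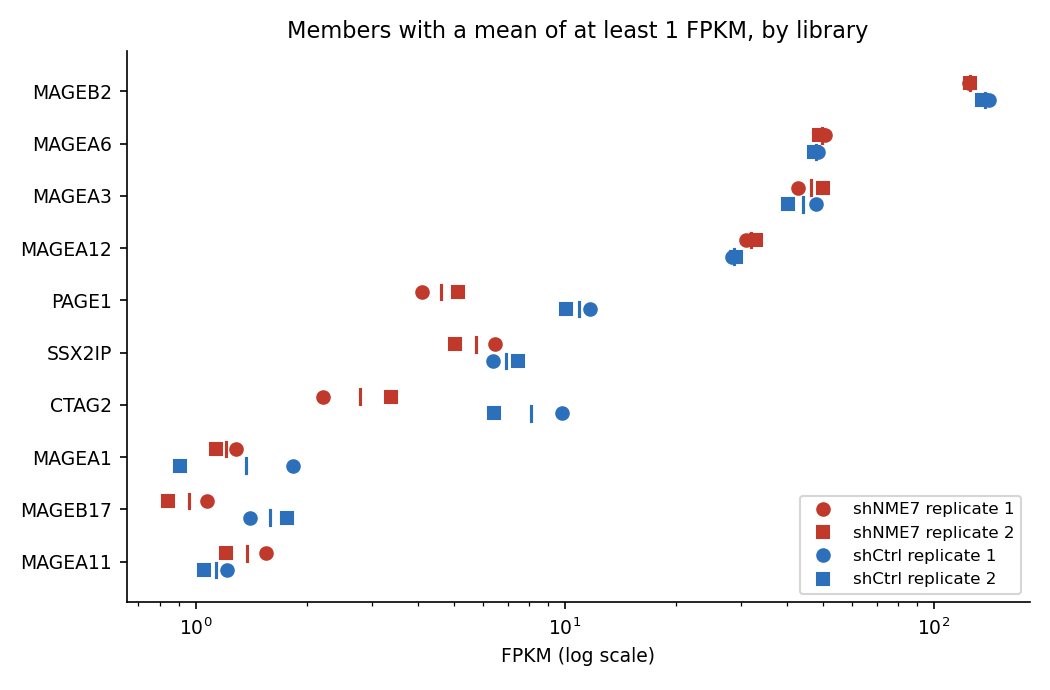
FPKM on a log axis for each tested member in each library, with shNME7 in red and shCtrl in blue, circles for replicate 1, squares for replicate 2 and a short line at each group mean. The shNME7 values of PAGE1 (4.10 and 5.14) and CTAG2 (2.21 and 3.38) lie left of their shCtrl values, while those of MAGEA3 overlap.

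The MAGEB family rested on a single gene. MAGEB2, which encodes a germ cell protein that limits the translation of a stress granule component, stood at 125 and 125 FPKM in shNME7 1 and 2, against 141 and 135 FPKM in shCtrl 1 and 2. Neither shNME7 value reached either shCtrl value, but the gap was small: the means were 125 ± 0.481 and 138 ± 4.33 FPKM (SD, n = 2 each), and the log2 difference, shNME7 minus shCtrl on the log2(FPKM + 1) scale, was -0.14 (SE 0.14). With the trend on GC content and length removed the log2 difference was -0.19 (SE 0.08). None of the 100-base stretches of MAGEB2 occurs in another annotated gene. MAGEB17 was the other tested member, at 1.07 and 0.841 FPKM in shNME7 (26 and 23 fragments), against 1.40 and 1.77 FPKM in shCtrl (36 and 46 fragments). The log2 difference was -0.40 (SE 0.19), and with limma-voom on fragments it was -0.73 (SE 0.40). It was -0.55 (SE 0.23) with the trend on GC content and length removed. MAGEB17 overlaps the antisense gene AC078993.1, which shares 13.99% of its 100-base stretches, and the sources used here do not say that strand was used in counting. The fragments of both genes together were 67 and 43 in shNME7 and 76 and 91 in shCtrl. MAGEB6 had 1 and 3 fragments in shNME7 and 7 and 11 in shCtrl, and MAGEB1, MAGEB4, MAGEB5, MAGEB6B and MAGEB10 had 0 in every library.

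The MAGEA family was on through a cluster of neighbouring genes in band Xq28. From MAGEA3 (152698752 to 152702347, plus strand) to MAGEA6 (152766136 to 152769747, minus strand) the annotation lists 10 genes, of which MAGEA3, CSAG1, MAGEA12, CSAG3 and MAGEA6 were tested, and all 5 had a higher mean in shNME7, although MAGEA3 and MAGEA6 turned lower with the trend on GC content and length removed. MAGEA3 and MAGEA6 encode proteins that bind the ligase TRIM28 and direct it to the energy sensor AMPK. MAGEA3 stood at 42.9 and 50.2 FPKM in shNME7 and 47.9 and 40.3 FPKM in shCtrl, so the groups overlapped. MAGEA6 stood at 50.6 and 48.9 FPKM in shNME7 and 48.5 and 47.3 FPKM in shCtrl, with log2 differences of 0.08 (SE 0.16) for MAGEA3 and 0.05 (SE 0.13) for MAGEA6. With the trend on GC content and length removed the signs turned, to -0.04 for MAGEA3 and -0.07 for MAGEA6. MAGEA12 stood at 30.99 and 33.0 FPKM in shNME7 and 28.4 and 29.2 FPKM in shCtrl, with a log2 difference of 0.15 (SE 0.13), and 0.04 with that trend removed. For MAGEA3, MAGEA6 and MAGEA12 the difference was near its SE or smaller. CSAG1 had a log2 difference of 0.07 (SE 0.17). CSAG3, whose value is uncertain because of its near copy CSAG2, had one of 0.50 (SE 0.19) with no overlap.

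Counts of such copies depend on how reads that match several places were handled, which is not given in the sources used here. In MAGEA3, 65.1% of the 100-base stretches occur in no other gene of the annotation, and in MAGEA6 67.0%, most of the rest being shared between these 2 genes. The split between them was 45.9% and 50.7% MAGEA3 in shNME7 and 49.7% and 46.0% in shCtrl, as a share of their summed FPKM. Their fragments together, 2571 and 3069 in shNME7 and 2801 and 2581 in shCtrl, overlapped between the groups. MAGEA2 and MAGEA2B, with 10.6% and 17.6% of stretches found in no other gene, had 16 and 3 fragments together in shNME7 and 5 and 2 in shCtrl. MAGEA12 had 96.5% of its stretches to itself. Summed over the 12 MAGEA members the level was 128 and 134 FPKM in shNME7, against 128 and 119 FPKM in shCtrl, and these ranges overlapped (131 ± 4.596 and 124 ± 6.57, SD, n = 2 each).

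Away from that cluster, MAGEA1, whose product was an early tumour antigen recognised by T cells, stood at 1.28 and 1.14 FPKM in shNME7 and 1.84 and 0.906 FPKM in shCtrl. The shCtrl values spanned the shNME7 values, and the log2 difference of -0.07 (SE 0.24) became 0.21 without shCtrl 1. MAGEA11, a coregulator of the androgen receptor, stood at 1.56 and 1.21 FPKM in shNME7 and 1.22 and 1.06 FPKM in shCtrl, with overlapping groups and a log2 difference of 0.15 (SE 0.19). MAGEA4 had 0 fragments in every library although 97.6% of its stretches are its own, and so had MAGEC1, MAGEC2 and MAGEC3, at 100% each. Where a gene has no fragment, as many as 3 per library (0.177 to 0.202 CPM, depending on the library) remain possible from counting error alone.

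PAGE1 (ENSG00000068985, chrX:49687450-49695993, minus strand) encodes a small GAGE-like protein. It stood at 4.10 and 5.14 FPKM in shNME7 1 and 2, against 11.7 and 10.1 FPKM in shCtrl 1 and 2, from 41 and 58 fragments against 124 and 108. The shNME7 values were the lower pair with no overlap, and the means were 4.62 ± 0.730 and 10.9 ± 1.17 FPKM (SD, n = 2 each), a shNME7 level 0.424 times that of shCtrl. The log2 difference was -1.08 (SE 0.16), and -1.23 (SE 0.30) with limma-voom on fragments. Over 12 alternatives it ran from -1.23 to -0.95. No 50-base or 100-base stretch of PAGE1 occurs in another annotated gene. CLCN5, the only other tested gene within 300 kb, stood at 2.13 and 2.54 FPKM in shNME7 and 2.14 and 2.81 FPKM in shCtrl. Of the other PAGE genes, PAGE5 had 0 and 6 fragments in shNME7 and 0 and 2 in shCtrl, PAGE2B had at most 1, and PAGE2, PAGE3 and PAGE4 had 0.

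CTAG2 (ENSG00000126890, chrX:154651972-154653579, minus strand), a relative of the NY-ESO antigen genes CTAG1A and CTAG1B, was the other member with such a difference. It stood at 2.21 and 3.38 FPKM in shNME7 1 and 2, against 9.81 and 6.43 FPKM in shCtrl 1 and 2, from 33 and 57 fragments against 155 and 103. The groups did not overlap, though the libraries of each group were further apart than for PAGE1, with means of 2.80 ± 0.826 and 8.12 ± 2.39 FPKM (SD, n = 2 each) and a shNME7 level 0.344 times that of shCtrl. The log2 difference was -1.26 (SE 0.24), and -1.51 (SE 0.34) with limma-voom on fragments. Over 12 alternatives it ran from -1.53 to -0.99. CTAG1B shares 24.5% of the 100-base stretches of CTAG2, and CTAG1A and CTAG1B, each with about 15% of stretches to itself (14.7% and 15.1%), had 0 fragments in every library. At 64.8% GC, CTAG2 lies well above the median of the tested genes (48.9%), and with the trend on GC content and length removed its log2 difference was -1.48 (SE 0.09). Of the 21 other tested genes within 300 kb of CTAG2, 14 had a higher and 7 a lower mean in shNME7 (median log2 difference 0.10), with both shNME7 values below both shCtrl values in 2 and above in 5, beside 18.4% and 17.8% of all tested genes. Among these, the pseudogene IKBKGP1 (154639978 to 154648275, minus strand), a copy of IKBKG whose value is therefore uncertain, had the highest log2 difference, 1.85 (SE 0.49), at 1.86 and 7.96 FPKM in shNME7 and 0.351 and 0.462 FPKM in shCtrl, from 30 and 145 fragments against 6 and 8. PAGE1 and CTAG2 were the 2 tested members with a mean at least 2-fold lower in shNME7, as were 1.05% of all tested genes.

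**Figure D2:**
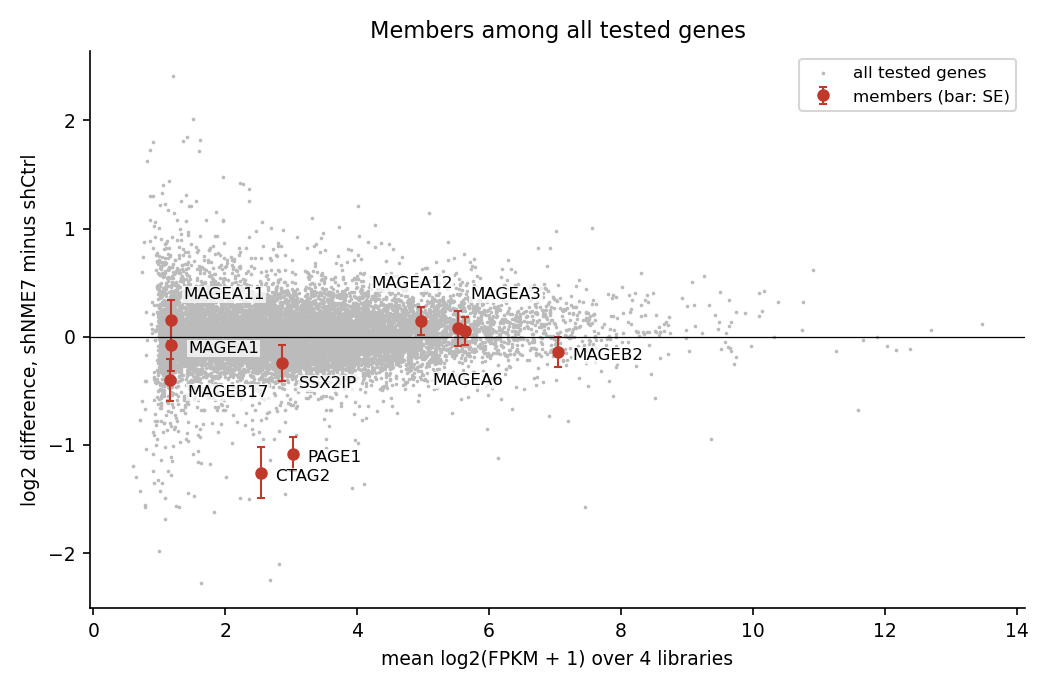
Log2 difference, shNME7 minus shCtrl, against the mean log2(FPKM + 1) of the 4 libraries, for 12866 tested genes (grey) and the 10 tested members (red, with the SE from limma-trend). PAGE1 at -1.08 and CTAG2 at -1.26 are the lowest of the 10, and the 4 members with the highest levels lie between -0.14 and 0.15; MAGEA3, MAGEA6 and MAGEA1 change sign under other settings.

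The GAGE, XAGE, SSX and CT45A families stayed near the limit of detection. GAGE genes had 7 and 4 fragments in all in shNME7 and 8 and 31 in shCtrl, from 4 of 13 members. Their summed level was 0.566 and 0.352 FPKM in shNME7 and 0.838 and 3.02 FPKM in shCtrl, a log2 ratio of -2.07 that rested on shCtrl 2 and was -0.87 without it. GAGE12J, with 0 and 0 fragments in shNME7 and 5 and 12 in shCtrl, has 22.6% of its stretches to itself, and GAGE1 and GAGE2A overlap in the annotation. XAGE2 had 5 and 9 fragments in shNME7 and 8 and 12 in shCtrl, and the other 4 XAGE genes had 0. SSX1, which is fused to SS18 in synovial sarcoma, had 6 and 6 fragments in shNME7 and 13 and 10 in shCtrl. CT45A genes had 4 and 3 fragments in all in shNME7 and 9 and 11 in shCtrl. GAGE12J, XAGE2, SSX1, MAGEB6 and PAGE5 are named here because of their values, and no fold is given for them.

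For the silent copies the annotation itself bears on what a 0 means. Of the 39 members at 0 in every library, 21 have under 25% of their 100-base stretches to themselves and 13 of these have none. The other 18 at 0 include 17 with over 75% of stretches to themselves, the 3 MAGEC genes, MAGEA4, PAGE3 and PAGE4 among them. 10 further genes with the same stems but other biotypes, mostly pseudogenes, held 6 fragments in all libraries together.

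**Figure D3:**
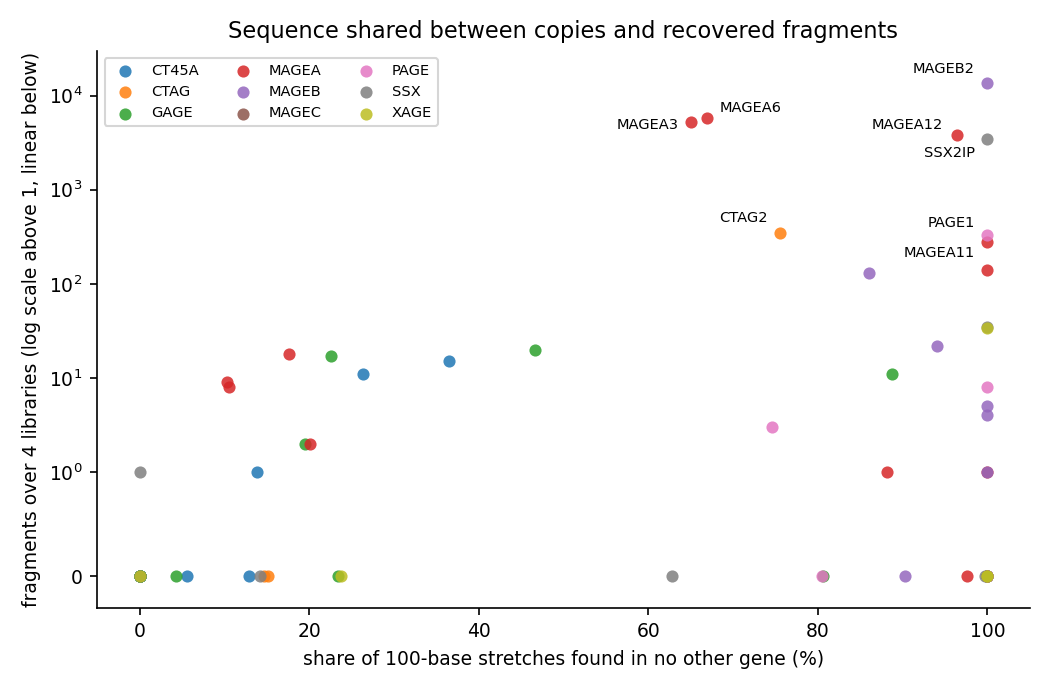
Recovered fragments over the 4 libraries against the share of 100-base stretches that occur in no other annotated gene, for the 71 members, coloured by family. The y axis is logarithmic above 1 and linear below. MAGEB2 and PAGE1 stand at 100%, MAGEA3 at 65.1% and CTAG2 at 75.5%, and the members at 0 fragments lie at both ends of the axis.

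The 22 members with fragments but under a mean of 1 FPKM had 1 to 35 fragments over the 4 libraries, and 45 and 38 in all in shNME7 1 and 2, against 57 and 89 in shCtrl 1 and 2. Both shNME7 values were below both shCtrl values in 6 of these (CT45A10, GAGE12J, MAGEA2, MAGEA9, MAGEB6 and SSX1) and above in 1 (MAGEB3), and 15 overlapped. Among the 13283 genes under the filter with as few fragments, 11% were below in this way and 11.3% above, and GAGE, CT45A and MAGEA2 copies share sequence, so these members are not separate measurements. MAGEA2 had 2 fragments in both shNME7 2 and shCtrl 2, and MAGEB3 had 1 in both shNME7 1 and shCtrl 2. For MAGEA2 and MAGEB3, library scaling alone kept the groups from overlapping. SSX2IP stood at 6.45 and 5.04 FPKM in shNME7 and 6.41 and 7.46 FPKM in shCtrl, with a log2 difference of -0.24 (SE 0.16) and overlapping groups. Among the 9 tested antigens, PAGE1, CTAG2, MAGEB17 and MAGEB2 had the 2 lowest values in shNME7, as 18.4% of all tested genes did, and MAGEA6 and MAGEA12 had the 2 highest there, as 17.8% did. The median log2 difference of the 10 tested members was -0.11, and -0.07 for the 9 antigens without SSX2IP, beside 0.01 over all tested genes.

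Over all genes, limma-trend with Benjamini-Hochberg adjustment called 0 of the 10 tested members and 0 of 12866 genes (0%). 2 members and 6.68% of all genes (859) were at an unadjusted p under 0.05. limma-voom called 0 of the 10 and 0.106% of 15112 genes (0.0926% lower in shNME7), with 2 members and 7.92% of genes at an unadjusted p under 0.05. NME7, the targeted gene, was not called by limma-trend (adjusted p 0.31) but was called by limma-voom (adjusted p 0.000998). A gene that was not called is therefore not shown to be unchanged. With 1 library left out, the number of limma-trend calls was 632 genes without shNME7 1, 277 without shNME7 2, 133 without shCtrl 1 and 112 without shCtrl 2, PAGE1 among them each time and CTAG2 in all but the fit without shCtrl 1. Where a group kept 1 library, its spread was taken from the other group. As this contrast led to the choice of the members, nothing is read from these counts.

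Related genes were taken as lists. Of 60 other cancer-testis genes outside the families, 18 were tested, 10 higher and 8 lower in shNME7, with a median log2 difference of 0.05, and neither limma-trend nor limma-voom called any. Whether the listed genes are confined to the germ line was not tested, so their levels do not show that germline genes were on. CT83, named after its values were seen, stood at 28.7 and 32.6 FPKM in shNME7 and 25.5 and 26.9 FPKM in shCtrl. ACTL8 stood at 24.0 and 30.99 FPKM in shNME7 and 25.1 and 20.4 FPKM in shCtrl. ATAD2 stood at 29.4 and 22.5 FPKM in shNME7 and 28.3 and 33.7 FPKM in shCtrl. LY6K stood at 17.9 and 26.9 FPKM in shNME7 and 19.6 and 12.95 FPKM in shCtrl, and CSAG3, of the MAGEA cluster, at 3.38 and 5.002 FPKM in shNME7 and 2.73 and 2.52 FPKM in shCtrl. CSAG3 has a near copy in CSAG2, so its value is uncertain. The groups overlapped for ACTL8, ATAD2 and LY6K. Of the 11 type II MAGE genes, relatives expressed in many tissues, 3 were tested and 6 had 0 fragments in every library. MAGED2 stood at 65.5 and 62.6 FPKM in shNME7 and 56.1 and 52.7 FPKM in shCtrl. MAGEF1 stood at 39.5 and 41.3 FPKM in shNME7 and 42.4 and 36.2 FPKM in shCtrl.

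Of 30 genes for DNA methylation, chromatin repression and transcription factors that act at germline promoters, 29 were tested, 12 higher and 17 lower in shNME7 (median log2 difference -0.06), and none was called by limma-trend or limma-voom. DNMT1, the maintenance methyltransferase, stood at 23.4 and 27.8 FPKM in shNME7 and 29.9 and 27.6 FPKM in shCtrl, and the groups overlapped. SP1, a factor that binds GC-rich promoters, stood at 20.0 and 17.5 FPKM in shNME7 and 23.1 and 25.5 FPKM in shCtrl, with a log2 difference of -0.36 (SE 0.14). EZH2, the methyltransferase of Polycomb complexes, stood at 15.4 and 13.3 FPKM in shNME7 and 17.7 and 19.2 FPKM in shCtrl (-0.34, SE 0.14), and ATRX, a chromatin remodeller, at 8.76 and 7.81 FPKM in shNME7 and 9.61 and 11.97 FPKM in shCtrl (-0.34, SE 0.16). Of 17 MAGE partners and substrates, 14 were tested, 8 higher and 6 lower (median 0.00), with none called by limma-trend or limma-voom. TRIM28 stood at 105 and 126 FPKM in shNME7 and 126 and 101 FPKM in shCtrl. PRKAA2, an AMPK catalytic subunit, stood at 8.12 and 6.50 FPKM in shNME7 and 10.1 and 11.3 FPKM in shCtrl, with a log2 difference of -0.50 (SE 0.16). RBX1, a RING subunit of cullin ligases, stood at 18.9 and 22.7 FPKM in shNME7 and 17.9 and 15.9 FPKM in shCtrl, and NSMCE1, a RING partner of MAGE proteins in the SMC5/6 complex, at 8.79 and 8.70 FPKM in shNME7 and 7.53 and 7.60 FPKM in shCtrl.

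**Figure D4:**
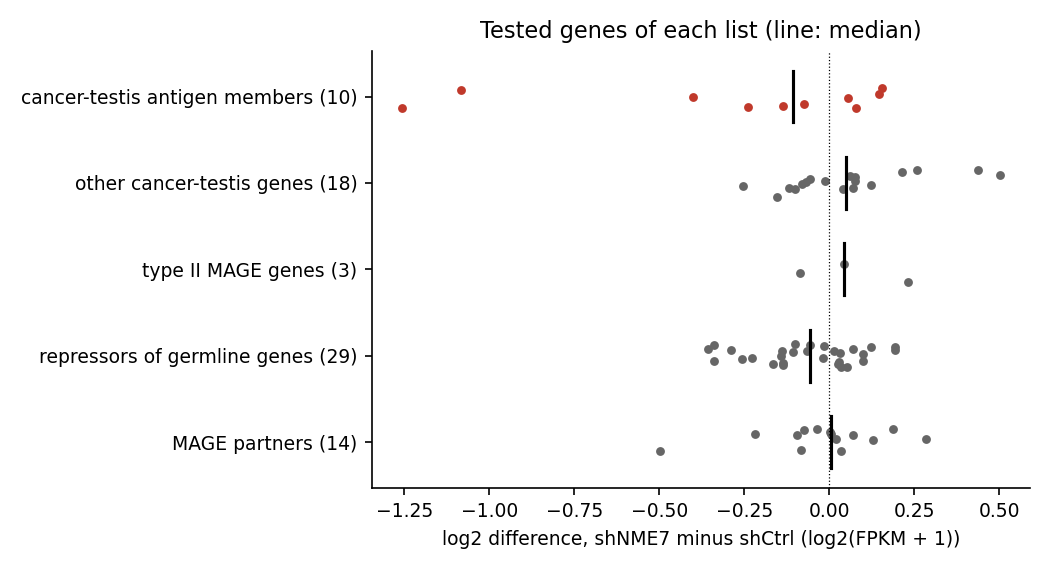
Log2 difference, shNME7 minus shCtrl, of each tested gene in 5 lists, with the number of genes in brackets and a line at the median. The members, SSX2IP included, have a median of -0.11 with PAGE1 and CTAG2 at the far left, and the other cancer-testis genes a median of 0.05.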

How the data were processed

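RNA-seq was done on 4 Huh7-labelled libraries, grouped by their titles. For every library the authors deposited FPKM for 58735 genes, per the file headers. HISAT2 2.0.5 and build hg18 appear in the submitters' processing notes. Not given in the sources used here are the counting tool, its annotation and strand setting, and the handling of multiply mapped reads. All 58735 IDs occur in GENCODE 29, on GRCh38, which gave names, coordinates and exon lengths.

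Multiplied by exon length, FPKM values above 0 were whole multiples of 1 step per library (100%, tolerance 0.01), which returned the fragments. limma-trend (limma 3.58.1, R 4.3.3) was run on log2(FPKM + 1) for genes with a mean of at least 1 FPKM, which understates the fold of low genes, with 2-sided p-values adjusted by Benjamini-Hochberg over all tested genes (threshold 0.05). limma-voom was run where fragments averaged at least 10. Both were also run on simulated counts. Changes were simulated only in genes with more fragments than PAGE1 or CTAG2 averaged, so nothing is read from that run for these genes. Shared sequence was counted as exact 50-base and 100-base matches, on either strand, to transcripts of other GENCODE genes. Promoters are from RefSeq. As no label names separate cultures, p-values reflect the spread between these libraries alone, possibly technical.

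Members and lists were chosen with earlier results of these data known. Members with a mean of at least 1 FPKM or 10 fragments are named in full, and of each other list the 3 with the largest difference among those of at least 5 FPKM. DNMT1, TRIM28, CT83, CSAG3 and the neighbouring genes were named after their values were seen.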

Additional observations from a re-analysis of the deposited data

How the results depend on the processing

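With 2 libraries per group, the number of calls depended on the fit. limma-trend called 0 genes, and 0 with a pseudocount of 0.1, no filter, a filter at 0.1 FPKM or scaling to total fragments. It called 1 gene with the GC and length trend removed and 112 to 632 with 1 library left out, and limma-voom called 16. Of the members 0 were called in all of these but the leave-outs, which called 1 to 2. Replicate numbers are shared between the groups, but same-numbered libraries deviated in opposite directions (correlation -0.35 over 12866 genes). With 2 libraries per group, every pairing gives this same value with one sign or the other. It therefore cannot show whether the numbers pair the libraries. With the replicate block 122 genes and 2 members, PAGE1 and CTAG2, were called. A crossed pairing, added after seeing the data, called 0 of either. The log2 differences of PAGE1 and CTAG2 were the same in both fits. Their SEs were 0.25 and 0.25 with the replicate block, 0.09 and 0.10 with the crossed pairing, and 0.16 and 0.24 without a block. The calls of PAGE1 and CTAG2 thus did not go with smaller SEs. Of the log2 differences of single members, 114 of 120 alternatives moved by less than the spread between replicates. Much of this count was fixed in advance. Neither a change of filter nor either block can alter these estimates, and leaving out 1 of 2 libraries cannot move them beyond that spread. The count is therefore not a measure of robustness. Signs turned for MAGEA3 (3 of 12 alternatives), MAGEA6 and MAGEA1 (1 each). With 1 library left out, the summed level had a log2 ratio of -0.17 to -0.12 for MAGEB, -2.72 to -0.87 for GAGE, 0.03 to 0.14 for MAGEA, -1.39 to -0.98 for PAGE and -1.88 to -1.20 for CTAG. The cause was not tested.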
